A study of Homo sapiens with 2 samples.

Results

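Processed pseudogenes are gene copies that arise when a messenger RNA is reverse transcribed and inserted back into the genome, so that they lack the introns and usually the promoter of the gene they came from, their parent. Parents that are strongly expressed in many tissues, such as those of ribosomal proteins, have left many such copies. Because a young copy is nearly identical to the mature mRNA of its parent, a short read from that mRNA can match both places, and a count on the copy need not mean that the copy itself is transcribed.

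The processed pseudogenes described here are the genes annotated as processed_pseudogene or transcribed_processed_pseudogene that had a summed count of at least 20 over both libraries. There were 120 of them, out of 683 listed processed pseudogenes and 3764 listed genes. Of the 120, 114 carried the annotation processed_pseudogene and 6 the annotation transcribed_processed_pseudogene. These genes were chosen by their summed count, so their abundance is a description and not a finding. The rule itself used neither the ratio between the libraries nor the counts of the parents, but it was set with earlier results of these data known. For a gene counted almost only in 1 library, the summed count and the ratio rest on the same counts. At the edge of the rule, 5 pseudogenes had exactly 20 counts and 1 had 21, with 8 to 13 of them in the vector library. Just outside it, Gm5417, Gm5869 and Gm9826 had 18 counts each, and none had 19.

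The RNA is labelled as coming from HepG2, a human liver carcinoma line, grown with no treatment. The vector library is labelled with a wild-type genotype and the title Vector, and the other library comes from cells in which SCRN1, the secernin 1 gene, was knocked out with CRISPR-Cas9. The labels do not say whether the knockout cells are 1 clone or a pool. With 1 library per group no ratio below has a replicate check, and a bulk library cannot tell fewer contributing cells from less RNA per cell.

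All 3764 listed genes have mouse Ensembl identifiers, although the libraries are labelled human. None of the mouse symbols Scrn1, Scrn2 and Scrn3 was listed, so the knockout could not be checked, and of 11 hepatocyte marker genes looked up by symbol 1 was listed, Krt8 (keratin 8), with 0 counts in vector cells and 2 in knockout cells. Actb, the beta-actin gene, had 16 and 7 counts, and Gapdh, a glycolytic gene used as a reference in many tissues, was not listed. The values below are therefore counts on listed mouse genes, and whether they follow the levels of copy and parent RNA in these cells was not tested. The counts summed to 178421 for the vector and 163644 for the knockout library. Positions below are those of the deposited table, on a mouse build not given in the sources used here. No pseudogene sequences are shown, since no mouse genome was used here.

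The 120 pseudogenes held similar shares of all counted reads in both libraries. They had 18484 counts in the vector library, 10.4% of its total (95% exact Clopper-Pearson interval 10.2 to 10.5), and 17836 counts in the knockout library, 10.9% (10.7 to 11.1). The other 563 listed processed pseudogenes held 0.563% and 0.559%. All intervals in this text cover counting error only, since 1 library per group gives no spread between replicates. Reads are also not independent molecules, so the intervals may be too narrow even for that.

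These counts were spread unevenly over the 120 genes. The 10 pseudogenes with at least 1000 counts held 46.4% of the counts of the group, and the 34 with 200 to under 1000 counts held 41.3%. The 35 with 50 to under 200 counts held 9.01% and the 41 with 20 to 49 held 3.36%. The median pseudogene had 88.5 counts over both libraries. They lay on 20 chromosomes, with the most on X (11), 4 (10), 1 (9) and 2 (9). Chromosome 4 carried 18.8% of the counts of the group, chiefly through Gm11836 and Gm12481, while the 11 genes on X carried 2.87%.

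The most counted processed pseudogene was Gm11836, on chromosome 4 from 14433891 to 14434331, with 1755 counts in vector and 1654 in knockout cells. After scaling with TMM factors, which correct for library depth and composition, its knockout over vector ratio was 1.04 (95% exact interval 0.975 to 1.12). It ranked 12 of all listed genes by summed count. Gm13456, on chromosome 2 from 40555752 to 40557116, had 1066 and 1168 counts and a ratio of 1.21 (1.12 to 1.32). Gm9531, a transcribed processed pseudogene on chromosome 9 from 81677598 to 81678677, had 1072 and 947 counts and a ratio of 0.978 (0.895 to 1.07). The 3 leading genes were thus within 1.5-fold of equality, and the table names no parent for any of them.

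Gm12481, which lies on chromosome 4 from 43664043 to 43664339, had 934 counts in vector cells and 849 in knockout cells. Ybx1-ps2, a copy of the Y box protein 1 gene on chromosome 6 from 37686239 to 37687195, had 757 and 665. Gm7964, on chromosome 7 from 83755904 to 83757281, had 700 and 679. Their ratios were 1.01 (0.916 to 1.11), 0.972 (0.875 to 1.08) and 1.07 (0.965 to 1.19), and each interval held 1 under TMM scaling.

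Gm5469 had 617 counts in vector cells and 632 in knockout cells, a ratio of 1.13 (1.01 to 1.27). Rps19-ps6, a copy of the ribosomal protein S19 gene on chromosome 12 from 110898114 to 110898551, had 575 and 603 and a ratio of 1.16 (1.03 to 1.30). Gm6296 had 526 and 580 counts and a ratio of 1.22 (1.08 to 1.38). These genes had intervals above 1 but fold differences far under 2. Gm11560 had 541 and 518 counts, and Gm18119 had 480 and 460. Gm6900 had 554 and 437 counts, a ratio of 0.873 (0.768 to 0.991). Under TMM scaling it was the 1 gene of the 15 most counted with an interval below 1.

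The last 3 of the 15 were Gm4366, with 382 counts in vector cells and 334 in knockout cells, Gm12346, a transcribed processed pseudogene with 344 and 322, and Gm6749, with 327 and 331. Together the 15 held 57.5% of the pseudogene counts with vector and 57.1% after knockout. Their ratios ran from 0.873 to 1.22. The interval lay above 1 for 4 of them, below 1 for 1, and held 1 for 10. With median-of-ratios size factors from DESeq2, which came out equal for both libraries and so left the counts unscaled, it lay above 1 for 1, Gm13456 (1.01 to 1.19), and below 1 for 4. Those were Gm9531 (0.809 to 0.965), Gm12481 (0.827 to 0.999), Ybx1-ps2 (0.790 to 0.976) and Gm6900 (0.694 to 0.896). For differences of this size the direction thus follows the scaling.

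**Figure D1:**
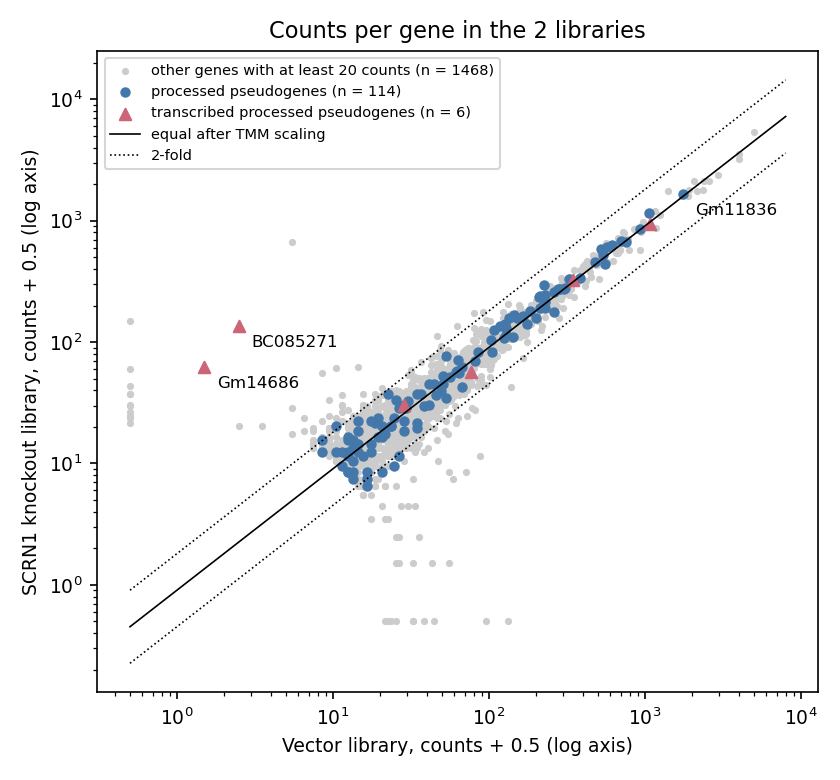
Counts plus 0.5 per gene in the vector library (x axis) and the SCRN1 knockout library (y axis), both on log axes, for the 114 processed and 6 transcribed processed pseudogenes and the other genes with at least 20 counts; the solid line is equality after scaling and the dotted lines are 2-fold. Nearly all pseudogenes follow the line, while BC085271 (2 and 134 counts) and Gm14686 (1 and 62 counts) stand far above it.

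The comparison of the knockout with the vector library asked which of these pseudogenes differed between them. BC085271, a transcribed processed pseudogene described only as a cDNA sequence, and Gm14686, another transcribed one, were far higher in the knockout library. With 2 and 1 counts in the vector library, both reached the limit of 20 summed counts through their knockout counts. Their place among the 120 thus depended on the same counts that made their ratios large. Gm48676 and Gm8228 were lower, by little more than the 2-fold limit. These 4 were the genes called different, meaning a ratio of at least 2 or at most 0.5 with an interval that excluded 1, and they were 2 higher and 2 lower of 120.

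Over all 1588 genes with at least 20 counts, the same rule called 7.24%, with 3.34% higher and 3.9% lower in the knockout library. The pseudogene calls were 3.33% of 120, and this difference in share was not tested. With the median-of-ratios factors the calls over all genes were 42 higher and 89 lower, in place of 53 higher and 62 lower, and those among the pseudogenes 2 higher and 3 lower. These factors moved every log2 ratio by -0.15 and the median of all compared genes from 0.03 to -0.12.

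BC085271 lies on chromosome 1 from 183205071 to 183206557. It had 2 counts in vector cells and 134 in knockout cells. The ratio was 74.1 (20.1 to 619), and it rested on 2 vector counts. In the authors' deposited table its adjusted p was 5.05e-25, from a test of 1 library against 1. Its nearest listed gene was Aida, 90033 bases away, with 34 and 38 counts, so the neighbouring gene did not show the same imbalance.

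Gm14686 lies on the X chromosome from 74261032 to 74261374. It had 1 count in vector cells and 62 in knockout cells, a ratio of 68.6 (11.9 to 2753). The authors' deposited table gave it an adjusted p of 2.1e-12. Its nearest listed gene, Taz, which encodes the cardiolipin-remodelling protein tafazzin and is 20538 bases away, had 4 and 2 counts. BC085271 and Gm14686 were the 2 of the 120 that had an adjusted p under 0.05 in the authors' deposited table, in which 4.03% of the genes with at least 20 counts and 2.68% of all listed genes did.

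The table names no parent for either gene. No search by sequence was made for a parent with the same imbalance, since it would need mouse sequence. Among listed genes looked up by name, the proteasome gene Psmc1 was also one-sided. It had 0 counts in vector cells and 149 in knockout cells, and the lower bound of its ratio was 44.1. Psmc1 was named after its values were seen. Whether it is the parent of either pseudogene was not tested. H3f3b, Ppp1cb and Ybx3, also looked up by name, are given below. BC085271 and Gm14686 were transcribed processed pseudogenes, and the other 4 of that annotation were close to even. Gm9531 and Gm12346 are given above, Gm14121 had 28 counts in vector cells and 30 in knockout cells, and Ppp1ccb had 76 and 56. Ppp1ccb is described as a catalytic subunit gamma B of protein phosphatase 1, a serine/threonine phosphatase, and its ratio was 0.815 (0.567 to 1.17).

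On the lower side, Gm8228 fell from 24 to 9 counts, a 2.41-fold lower level after scaling (1.08 to 5.89). Gm48676 fell from 26 to 11 counts, a 2.14-fold lower level (1.02 to 4.79). Both intervals end close to 1, and neither gene was called with a 99% interval. The nearest listed gene to Gm8228 was Tent5a, 343924 bases away with 2 and 2 counts, and the nearest to Gm48676 was Zfp273, 1686998 bases away with 1 and 1.

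Another 5 pseudogenes reached 2-fold with an interval that held 1. Eif5al3-ps had 10 counts in vector cells and 20 in knockout cells, a ratio of 2.21 (0.989 to 5.29), and Gm5341 had 8 and 15, a ratio of 2.08 (0.826 to 5.65). Gm8258 had 20 and 8 counts, Gm21178 had 16 and 6, and Gm6823 had 16 and 7. With the median-of-ratios factors the ratio of Gm8258 was 0.400 (0.152 to 0.948), which passed the rule, and the other 4 kept intervals that held 1.

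**Figure D2:**
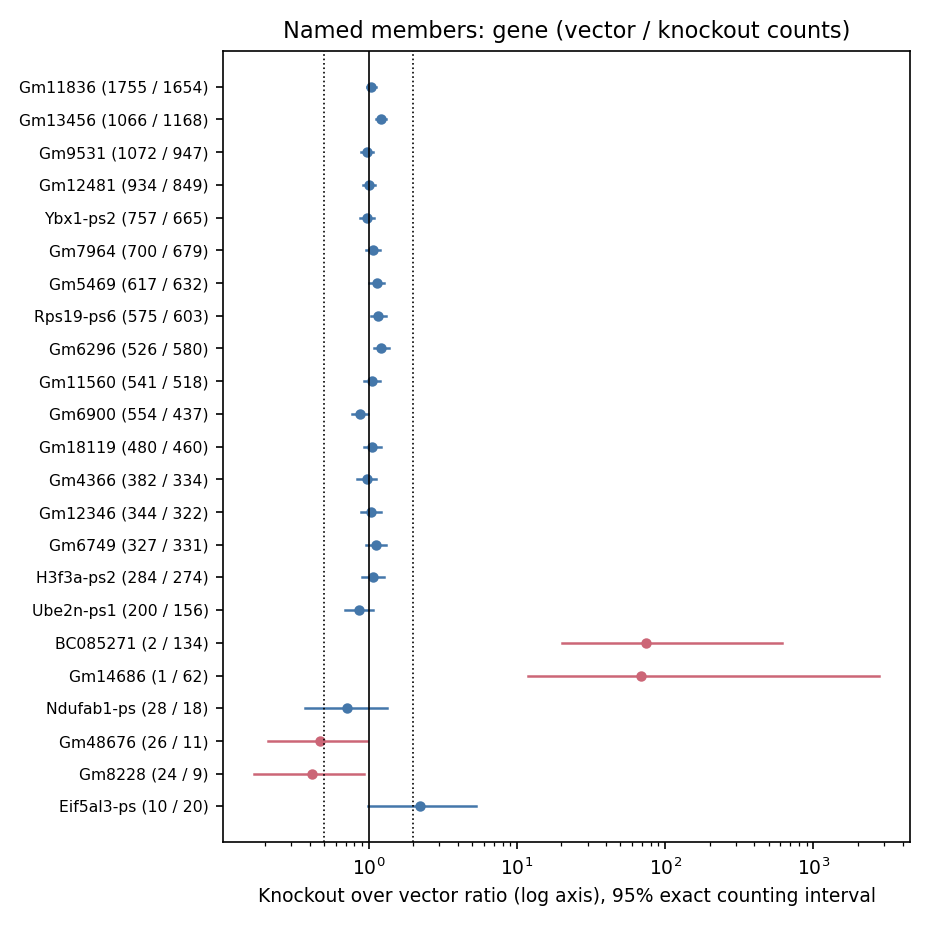
Knockout over vector ratio (log axis) with its 95% exact counting interval for the 15 most counted pseudogenes, the 4 called different (red) and the leading member of each class of described parent; both counts follow each name, and dotted lines mark 2-fold. The most counted genes sit between 0.873 and 1.22 with narrow intervals, and BC085271 and Gm14686 lie above 10 even at their lower bounds.

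Most of the 120 pseudogenes were close to even between the libraries. The ratio lay within 1.5-fold for 104 of them (86.7%), against 1204 of the 1588 compared genes (75.8%), and the pseudogenes had more counts per gene at the median than protein-coding genes (88.5 against 70). None of the 120 had a count of 0 in a library, against 21 of the 1588. Their median log2 ratio was 0.07, with quartiles of -0.17 and 0.27, and that of all compared genes was 0.03, with quartiles of -0.26 and 0.28. The median of the pseudogenes became -0.07 with the median-of-ratios factors.

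The calls were split by depth as follows. Among the 44 pseudogenes with at least 200 counts the ratios ran from 0.758 to 1.46, and 0 were called, against 1.17% of all genes of that depth. Of the 35 with 50 to under 200 counts 2 were called, against 5.62% of all genes. Of the 41 with 20 to 49 counts 2 were called, against 12.8%.

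The widest of the well-counted differences were those of Gm4202 and Gm16580. Gm4202, on chromosome 3, had 224 counts in vector cells and 295 in knockout cells, a ratio of 1.46 (1.22 to 1.74). Gm16580, on chromosome 17, had 260 and 178 counts, a ratio of 0.758 (0.623 to 0.920). Neither reached 2-fold, and the authors' deposited table gave them adjusted p-values of 0.424 and 0.831. Gm3531 (212 and 239 counts) and Gm15801 (210 and 236) had ratios of 1.25 (1.03 to 1.51) and 1.24 (1.03 to 1.51). Below 200 counts, Gm2058 (53 and 76 counts) and Gm14048 (22 and 37) had intervals above 1 without reaching 2-fold, at ratios of 1.59 (1.10 to 2.30) and 1.86 (1.07 to 3.31). Of these 6 genes, Gm4202 and Gm16580 had intervals that excluded 1 with the median-of-ratios factors too.

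Over all 120, the interval excluded 1 for 17 pseudogenes, 13 above it and 4 below, which is 14.2% where all compared genes had 16.5%, with 8.69% above and 7.81% below. With library totals 11 lay above and 4 below, and with upper-quartile scaling 14 and 4. The median-of-ratios factors, which left depth uncorrected, put 4 above and 11 below, so this balance turned with those factors only. The log2 ratios of the 44 best-counted pseudogenes had a robust SD of 0.19, where counting error gives a median of 0.13. For the 297 protein-coding genes of that depth these values were 0.22 and 0.15. Across genes the log2 counts of the 2 libraries had a Pearson r of 0.913 over the 120 pseudogenes and of 0.979 over 118 without BC085271 and Gm14686. BC085271 and Gm14686 were left out after their values were seen. For 1455 protein-coding genes with at least 20 counts r was 0.823, with no gene left out, so it is comparable only with the value over all 120. Genes of 1 library share its depth and processing and are not independent, and the shares at each depth differ between the groups.

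**Figure D3:**
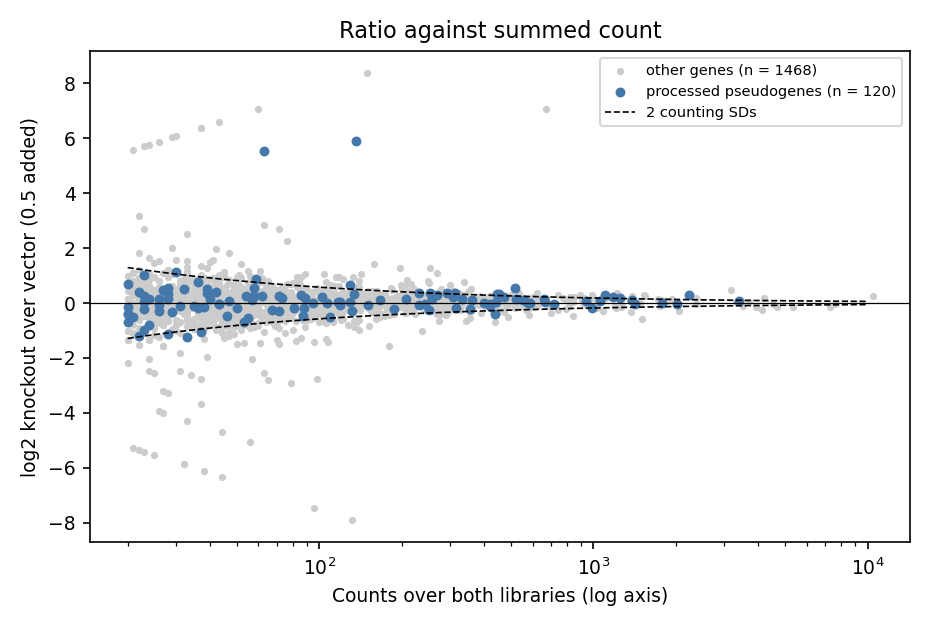
log2 of the knockout over vector ratio (0.5 added to each count) against the counts over both libraries (log axis) for the 120 pseudogenes and the other compared genes; dashed lines are 2 times the SD that counting error gives. The pseudogenes with at least 200 counts lie between ratios of 0.758 and 1.46, and 2 pseudogenes stand above a log2 ratio of 5.

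Pooled over the 120, the knockout over vector ratio of the counts was 1.07 (1.05 to 1.09). Without BC085271 and Gm14686 it was 1.06 (1.03 to 1.08). Over the 120 it was 1.05 (1.03 to 1.07) with library totals and 1.08 (1.05 to 1.10) with upper-quartile scaling. With the median-of-ratios factors, which left the difference in library totals uncorrected, it was 0.965 (0.945 to 0.985). The pooled ratio was thus above 1 with TMM, library totals and upper-quartile scaling, and below 1 only with the factors that left depth uncorrected. With 1 library per group the direction cannot be settled.

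Most of these pseudogenes had no parent named in the table. Of the 120, 100 were described only as a predicted gene or predicted pseudogene, and they held 87.7% of the counts of the group. None of the 120 had a Gene Ontology term and 2 had a KEGG ortholog. These were Ppp1ccb, assigned to the catalytic subunit of protein phosphatase 1, and Gm10705, assigned to the ubiquitin-conjugating enzyme E2 L3, which passes ubiquitin to E3 ligases. Gm10705 had 211 counts in vector cells and 189 in knockout cells, a ratio of 0.991 (0.810 to 1.21), and the gene Ube2l3 was not listed.

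The descriptions of 15 pseudogenes named 13 parents, of which 7 were themselves listed, with 9 copies among the 120. The copies took a share of the counts that ranged from a minority of copy plus parent for Ybx1 to nearly all for Rps19. Of the 7 parents, the odds of a count falling on the copy rather than the parent differed between the libraries beyond counting error for Ube2n, with 95% exact conditional intervals. The handling of reads that match both copy and parent is unstated in the labels and the table.

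Ybx1 encodes the Y-box binding protein YB-1, which binds mRNA and DNA and regulates translation. The parent had 2384 counts in vector cells and 2123 in knockout cells, beside 757 and 665 on Ybx1-ps2. The share of the copy was 24.1% (22.6 to 25.6) in vector cells and 23.9% (22.3 to 25.5) in knockout cells. The odds ratio between the libraries was 0.986 (0.874 to 1.11), so the balance differed by less than counting error.

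Rps19 encodes a protein of the small ribosomal subunit. The parent had 25 counts in vector cells and 19 in knockout cells, whereas Rps19-ps6 had 575 and 603. The copy therefore held 95.8% (93.9 to 97.3) and 96.9% (95.3 to 98.2) of the counts, with an odds ratio of 1.38 (0.721 to 2.68). Rps19 itself had a ratio of 0.841 (0.438 to 1.59).

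Ube2n encodes an E2 enzyme that builds lysine-63-linked ubiquitin chains. The parent had 118 counts in vector cells and 132 in knockout cells, and Ube2n-ps1 had 200 and 156. The share of the copy was 62.9% (57.3 to 68.2) in the vector library and 54.2% (48.2 to 60.0) in the knockout library, and the odds ratio was 0.698 (0.497 to 0.978). The upper bound is close to 1, and neither the copy, at 0.863 (0.696 to 1.07), nor the parent, at 1.24 (0.958 to 1.60), had an interval that excluded 1 under TMM scaling. With the median-of-ratios factors the copy did, at 0.780 (0.629 to 0.966), whereas the odds ratio does not depend on the scaling. Ube2n-ps1 lies within the listed gene Clock, a circadian transcription factor gene, which had 6 and 13 counts.

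The other 4 parents had few counts. Mrto4, a ribosome maturation factor gene, had 11 counts in vector cells and 15 in knockout cells, beside 34 and 37 on Mrto4-ps2 and 24 and 23 on Mrto4-ps1. Ap3s1, which encodes the sigma subunit of the AP-3 vesicle adaptor complex, had 12 and 14, beside 18 and 21 on Ap3s1-ps1 and 13 and 15 on Ap3s1-ps2. In both families the 2 copies were each counted at least as often as their parent, in both libraries.

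Ap3m1, which encodes the mu subunit of the same adaptor complex, had 13 counts in vector cells and 7 in knockout cells, against 19 and 16 on Ap3m1-ps. Kansl2, which encodes a subunit of a histone acetyltransferase complex, had 19 and 33 against 10 and 12 on Kansl2-ps. Its ratio of 1.92 (1.06 to 3.58) was the 1 among the 7 parents with an interval that excluded 1 under TMM scaling. With the median-of-ratios factors the ratio of Kansl2 was 1.74 (0.959 to 3.23), and that of Ybx1 was 0.891 (0.840 to 0.945), with an interval below 1. The odds ratios of these 4 families ran from 0.694 for Kansl2 to 1.55 for Ap3m1, each with an interval that held 1. By count, the copy was above its parent in both libraries for 7 of the 9 pairs, and the exceptions were Ybx1-ps2 and Kansl2-ps. Copies needed at least 20 summed counts and parents had no minimum, so the rule favours pairs with the copy above. Copies under that limit can lie far below their parent. Rps19-ps4 and Rps19-ps11 had 1 count in each library, where Rps19 had 25 and 19.

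**Figure D4:**
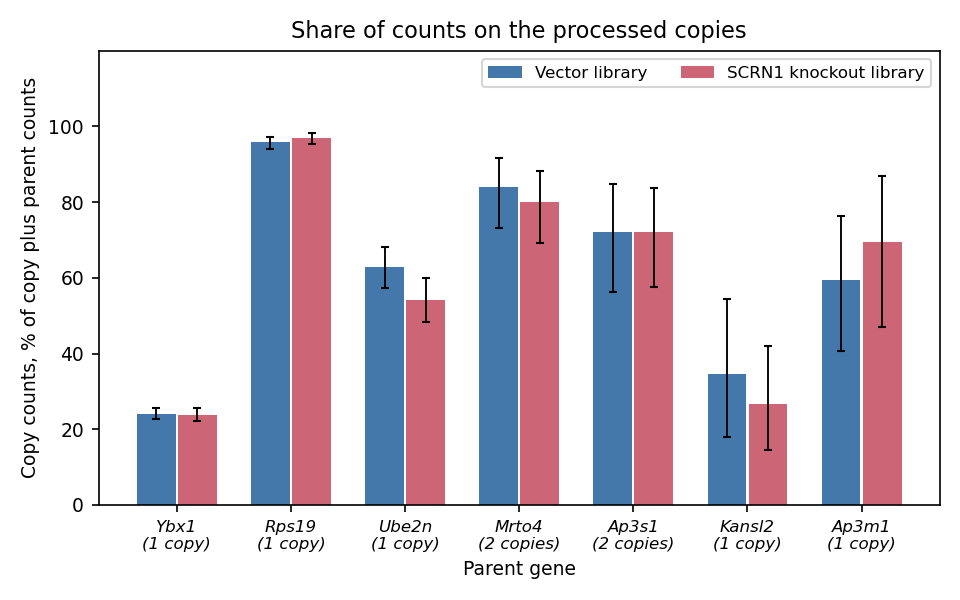
Counts on the processed copies as a percentage of copy plus parent counts, in the vector and SCRN1 knockout libraries, for the 7 listed parents, with bars from 0 and 95% exact intervals for counting error. The shares run from 23.9% for Ybx1 to 96.9% for Rps19 in the knockout library, and the Ube2n copy falls from 62.9% in the vector library to 54.2% in the knockout library.

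Set per length, with the authors' FPKM (fragments scaled to gene length and to the fragments counted in the library), every one of these 9 copies was above its parent in both libraries. The count limit on the copies alone favours this outcome too. In the vector library Rps19-ps6 had an FPKM of 7328 and Rps19 one of 23.8, and in the knockout library 8381 and 19.7. Ube2n-ps1 had 2432 against 97.7 for its parent in the vector library, and 2069 against 119 in the knockout library. Ybx1-ps2 had 4416 against 2702, and 4230 against 2624.

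These per-length levels depend on the gene length behind the FPKM. The length that the deposited counts and FPKM values imply was 5858 bases for Rps19, longer than its annotated span of 5436 bases, introns included. The implied length exceeded the annotated span by more than 1 base for 232 of 2992 protein-coding genes, so it is not a plain sum of distinct exon bases, and it lowers the FPKM of such genes. It was 4925 bases for Ybx1 and 957 for its copy. If a parent and its copy were taken as equally long, their ratio would be that of the counts, 0.318 for Ybx1-ps2 over Ybx1 in vector cells and 0.313 in knockout cells. Which of these genes had the higher level per length therefore depends on the length used, and the same holds for Kansl2-ps (a count ratio of 0.526 and 0.364).

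For 109 of the 120 pseudogenes the implied length equalled the annotated span to within 1 base, as an intronless gene gives, against 22 of the 1455 protein-coding genes with at least 20 counts. All implied lengths here rest on library totals of 179141 for vector and 164271 for knockout. Each total was the median of those that set implied length equal to span in the better-counted of these pseudogenes. A match for the typical pseudogene is thus built in. The implied length was above the span for 3 pseudogenes and below it for 8. The median implied length was 804 bases for the pseudogenes and 9793 for the protein-coding genes. With these lengths the median FPKM in the vector library was 389 for the pseudogenes and 23.5 for the protein-coding genes, and in the knockout library 424 and 22.2. Pseudogenes were 9 of the 10 genes with the highest mean FPKM and 17 of the highest 20, although they were 0 of the 10 and 3 of the 20 with the most counts. Gm11836 had the highest mean FPKM of the table, with 22215 in vector cells and 22832 in knockout cells, followed by Gm12481 with 17555 and 17402.

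**Figure D5:**
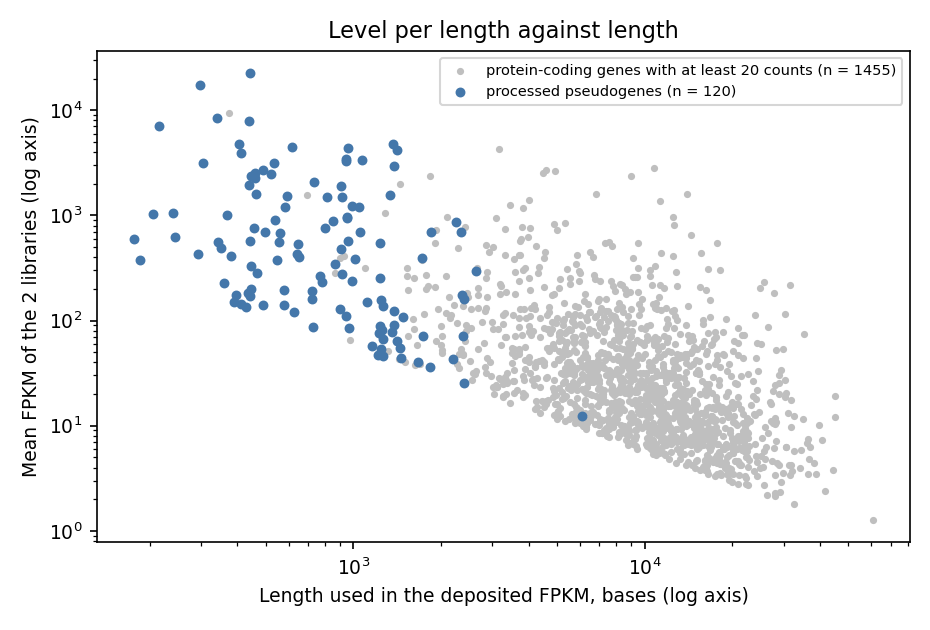
Mean FPKM of the 2 libraries against the length implied by the deposited FPKM values, in bases, both on log axes, for the 120 pseudogenes and the 1455 protein-coding genes with at least 20 counts. The pseudogenes are shorter (median 804 against 9793 bases) and hold most of the highest FPKM values; the straight lower edge is the 20-count filter.

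For 6 described copies no listed gene had exactly the description of the named parent. H3f3a-ps2, a copy of the gene for the replacement histone H3.3, had 284 counts in vector cells and 274 in knockout cells, a ratio of 1.07 (0.901 to 1.26). H3f3b, a gene that encodes the same histone protein and is not the named parent, had 32 counts with vector and 1 after knockout, a level 28.9-fold lower (4.83 to 1177), and was chosen for mention after its values were seen. The copy and this related gene thus did not have the same ratio. Related genes of other copies varied. Ppp1cb, related to Ppp1ccb, was even at 184 and 182 counts, a ratio of 1.09 (0.887 to 1.35). Ybx3, related to Ybx1-ps2, had 1 and 13 counts, a ratio of 14.4 (2.16 to 611), where Ybx1-ps2 was even.

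Rps10-ps2, a copy of another gene of the small ribosomal subunit, had 61 and 56 counts, a ratio of 1.02 (0.694 to 1.48). Amd-ps1 and AC144860.3, both described as copies of S-adenosylmethionine decarboxylase genes of polyamine synthesis, had 45 and 36 counts and 13 and 13 counts. Pdcd5-ps, from a programmed cell death gene, had 26 and 28. Vcp-rs, related to the gene of the ATPase valosin containing protein, had 13 and 8. All of these intervals held 1.

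For another 3 pseudogenes the description is that of a related gene and names no parent. Eif5al3-ps is described as like translation initiation factor 5A, whose gene Eif5a had 2082 counts in vector cells and 2124 in knockout cells. Its 10 and 20 counts made up 0.478% (0.229 to 0.877) and 0.933% (0.571 to 1.44) of the pair, with an odds ratio of 1.96 (0.873 to 4.70). Supt4b, named as a second form of the transcription elongation factor gene Supt4a, had 25 and 33 counts where Supt4a had 32 and 22, an odds ratio of 1.91 (0.848 to 4.36). Ndufab1-ps, from a gene of mitochondrial complex I, had 28 and 18 counts and a ratio of 0.711 (0.371 to 1.33). In none of these did the libraries differ beyond counting error.

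By the words of their descriptions, the classes of parents were small. Ribosomal protein copies numbered 2, with 636 counts in vector cells and 659 in knockout cells, and translation factor, ubiquitin, histone and mitochondrial copies numbered 1 each. None of these 6 genes was called different, where the rule called 7.24% of all compared genes, and so few genes show nothing about a class. No described copy of a heterogeneous nuclear ribonucleoprotein, poly(A) binding, actin, 14-3-3, ferritin, glycolytic, tubulin, chaperone, importin, splicing or zinc finger gene was among the 120. The 100 predicted genes may include such copies, since their descriptions name no parent. The 3 calls among those 100 were Gm14686, Gm48676 and Gm8228. The median log2 ratio of all 100 was 0.05.

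Position within other genes was the last feature compared. The spans of 11 pseudogenes lay wholly inside another listed gene, which was protein-coding for 10, and the strand is not given in the table. For 6 of these 10 the surrounding gene had fewer counts than the pseudogene. The pseudogenes needed at least 20 summed counts and the surrounding genes did not, so the rule favours this outcome. Gm12481, with 934 and 849 counts, lies in Fam221b, which had 4 and 0. Gm6296, with 526 and 580 counts, lies in the calpastatin gene Cast, which had 2 and 0, and Gm12346 lies in the slingshot phosphatase gene Ssh2, which had 3 and 4. These pseudogenes were thus counted where the gene around them was nearly uncounted.

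Gm16580, with 260 counts in vector cells and 178 in knockout cells, lies in the splicing-factor-like gene Luc7l, which had 67 and 54 and a ratio of 0.892 (0.611 to 1.30). Gm12734 (20 and 16 counts) lies in the kinase gene Taok1 (101 and 82), and Gm11196 (16 and 8) in the kinase gene Nlk (61 and 46). Gm12749 (12 and 11) lies in the endocytosis gene Eps15 (13 and 21). In these last 3 the surrounding gene was counted more often than the pseudogene. No 2 of the 120 pseudogenes overlapped each other.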

How the data were processed

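RNA-seq of 1 vector and 1 SCRN1 knockout library of HepG2 cells was compared, with groups taken from the sample titles. DNase treatment of total RNA and separation of mRNA preceded library construction, per the labels' protocols. Per the submitters' processing notes, bcl2fastq 2.19, HISAT2 2.0.4, StringTie 1.3.0 and GRCh38 were named; no label or header used here gives the counting tool, the mouse build, the strand setting or the handling of reads with several matches. The authors' deposited table holds unnormalized counts for each gene (totals 178421 and 163644), FPKM values, a log2 fold change that is vector over knockout, and p-values with adjusted p.

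The pseudogenes, parents and lists were chosen with earlier results of these data known. TMM factors from edgeR 4.0.16 in R 4.3.3 scaled the libraries. The knockout over vector ratio got an exact conditional binomial (Clopper-Pearson) interval at 95%, and 0.5 was added on the log2 scale. Genes with at least 20 counts were called at 2-fold with an interval excluding 1. No quasi-likelihood fit was made, because a single library in each group gives no estimate of spread. The balance of copy and parent was compared by the conditional odds ratio. Parents were matched by the description text. The rule for named genes takes the 15 most counted pseudogenes, every called one, the listed parents with their copies and the most counted of each described class; others were named after their values were seen. Median-of-ratios factors came from DESeq2 1.42.0. The calling step was tested on simulated counts with Poisson error only, so spread beyond counting error was not tested. Intervals came from SciPy 1.17.1 in Python 3.11.15, and figures from matplotlib 3.10.9.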

Additional observations from a re-analysis of the deposited data

How the results depend on the processing

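No paired analysis was possible because each group has 1 library, and for the same reason no replicate could be left out. Of the 120 pseudogenes, 4 were called. The number was 2 with a 3-fold limit, 2 with a 99% interval (88 of all 1588 genes), 2 with at least 50 counts, 2 among the 114 annotated processed_pseudogene (chosen after seeing the data) and 7 of 683 with no count filter. It was 4 with library totals or upper-quartile scaling, 5 with the median-of-ratios factors, which added Gm8258, 6 at 1.5-fold and 6 of 158 with at least 10 counts. Over all genes, 115 calls became 188 with at least 10 counts, 42 with at least 50, 295 with no filter, 181 at 1.5-fold and 63 at 3-fold. BC085271 and Gm14686 were called under every scaling tried. The pooled ratio of the pseudogenes turned from 1.07 to 0.965 with the median-of-ratios factors, and to 0.954 when BC085271 and Gm14686 were also left out, a set chosen after seeing the data; the factors left the counts unscaled, which by construction shifts every ratio down. The number of parents whose copy balance had an interval that excluded 1 stayed at 1 under each alternative, including the addition of Eif5a and Supt4a, chosen after seeing the data. These alternatives could hardly change that number, so its stability says little. A limit of 50 counts for copies and parent together kept all 7 parents, and including all listed copies left the Ube2n odds ratio at 0.698. Depth limits the 41 pseudogenes with 20 to 49 counts most: a 2-fold difference at 10 and 20 counts had an interval that held 1.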

Other observations

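The 563 processed pseudogenes with fewer than 20 counts were outside the comparisons. They had 1004 counts in vector cells and 914 in knockout cells, a pooled ratio of 1.01 (0.920 to 1.10), and 381 of them had 2 counts in all, the fewest of any listed gene. Of these, 48 were described as ribosomal protein copies, which together had 78 and 60 counts, a ratio of 0.851 (0.598 to 1.21). The most counted of them was Rps27a-ps2, from a gene that encodes ubiquitin fused to a ribosomal protein, with 4 and 7 counts. Rpl3-ps1, a copy of a large-subunit ribosomal protein gene, had 10 counts in vector cells and 0 in knockout cells, and its interval ended at 0.494.

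Other described copies below the limit also came from genes of translation and cell structure. AC154779.2, described as a copy of the initiation factor gene Eif1, had 8 and 9 counts. Krt8-ps, a copy of the keratin 8 gene, had 5 and 8, where Krt8 itself had 0 and 2. Besides Rpl3-ps1, Gm15427 (10 and 1 counts) and Gm9347 (0 and 5) were the sparsely counted pseudogenes that passed the interval rule, and all 3 were chosen for mention after their values were seen.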
